A study of Mus musculus with 6 samples.

Results

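The ABC transporters described here were 45 genes of 47256 gene names that were listed once for every mouse: every name of the Abca, Abcb, Abcc, Abcd and Abcg subfamilies, without pseudogenes and without Abcb11. The members were taken by symbol, from 46 matching names, and the rule itself used no measured value. Subfamily A gave 16 genes, B gave 9, C gave 10, D gave 4 and G gave 6. Their messenger RNA was measured once in the liver of each of 6 mice (Mus musculus) by stranded RNA-Seq. The laboratory group held 3 males of the inbred strain C57BL/6, aged 17 to 18 weeks. The wild group held adults of unstated age that had been trapped in New South Wales and then kept for 3 months, wild mouse 1 being a male and wild mice 2 and 3 females. Per the study's specimen list, wild mice 1 and 2 came from Murrumbateman and wild mouse 3 from Yass. The labels name no introduced allele and no agent for either group. That list also gives a longer interval from preparation to sampling of the fixed tissue for the laboratory mice than for the wild mice. Origin, housing history, this interval and any difference in age went with the group, and every laboratory mouse was a male. These factors and, for the females, sex therefore cannot be told apart in the comparison of the groups. Each mouse was 1 animal and 1 library, so the spread within a group includes both animal and technical variation.

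ABC transporters use the energy of ATP to carry lipids, sterols, bile constituents, drug conjugates, haem precursors and fatty acyl-CoA across membranes. In the liver the best known of them sit on the canalicular face of the hepatocyte, where they load bile, or on its blood-facing side, where they return conjugates to plasma. Others work inside the cell, in peroxisomes, mitochondria and lysosomes.

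Levels are given as FPKM, fragments per kilobase of gene scaled to the mapped fragments of the library, and tests were run on zFPKM, the log2 FPKM of a gene less a mode and divided by an SD that belong to that mouse. Over all 18619 genes tested, FPKM was higher in wild mice by a median of 1.38-fold, a log2(FPKM + 0.1) difference of -0.47 for laboratory minus wild mice, whereas the median zFPKM difference was 0.00500. A difference in zFPKM is therefore relative to the other genes of the same mouse. The files gave no read counts, but genes that rest on about 1 fragment placed the depth of laboratory mouse 3 at 0.922 and of wild mice 1 to 3 at 1.14, 1.36 and 1.18 times that of laboratory mouse 2. The absolute depth, and that of laboratory mouse 1, stayed unknown. The liver markers Ttr, Tat and Cyp2e1 were at 57 FPKM or more in every mouse, with Ttr higher (0.53, limma adjusted p = 9.77e-10) and Tat (-0.70, limma adjusted p = 7.09e-09) and Cyp2e1 (-0.93, limma adjusted p = 4.60e-21) lower in laboratory mice in zFPKM, and the other 3 hepatocyte markers listed had no single estimate. When gene-specific variances were kept, in a fit described below, 1 of the 3 tested markers passed. In bulk tissue, fewer cells of a type and less RNA per cell cannot be told apart.

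In FPKM, ABC transporter messenger RNA was lower in every laboratory liver than in any wild liver. The summed FPKM of the 45 genes was 219, 241 and 311 in the laboratory mice against 742, 701 and 662 in the wild mice. Genes with FPKM above 10 numbered 5, 6 and 8 in the laboratory mice against 15, 17 and 17 in the wild mice. Abcd3 was the most abundant member in both groups and Abcb4 came next, ahead of Abcg5 in the laboratory mice and of Abcc3 in the wild mice. The 6 genes Abca12, Abca13, Abca15, Abca16, Abcb5 and Abcc8 were listed at 0 in every mouse, and Abca14 and Abcg4 stayed below the minimum set for a test.

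Of the 37 members that passed the filter on low values, 10 were lower and 1 was higher in laboratory mice (limma on zFPKM, Benjamini-Hochberg adjusted p under 0.05 over all tested genes). The 10 lower members were Abca3, Abca6, Abca8a, Abca17, Abcb1a, Abcc2, Abcc3, Abcc4, Abcd2 and Abcd3, or 27.0% of those tested, where 7.28% of all tested genes were called lower. The higher member was Abcc10, or 2.70% of those tested, where 7.17% of all tested genes were called higher. In FPKM, every laboratory mouse was below every wild mouse for 23 members, 62.2% against 43.7% of all tested genes. Every laboratory mouse was above every wild mouse for 2 members, Abcc5 and Abcc10, 5.41% against 12.1% of all tested genes. The median zFPKM difference of the members was -0.27, with 23 differences below 0 and 14 above, and the median fold in FPKM was 2.43 in favour of the wild mice.

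**Figure D1:**
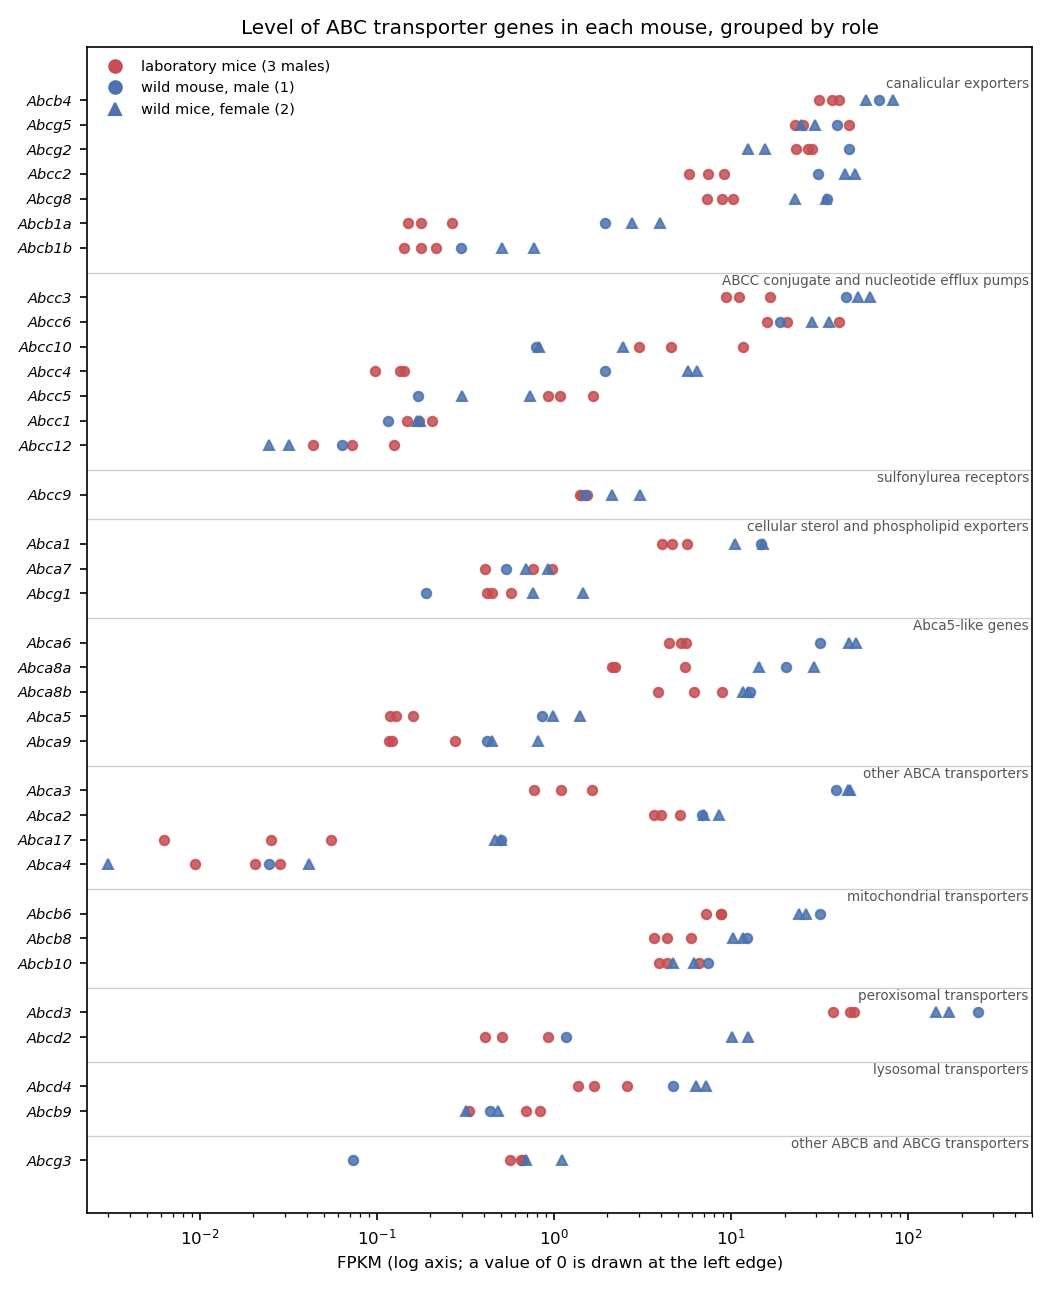
FPKM (horizontal, log axis) of 35 tested ABC transporter genes in each of the 6 mice, with genes grouped by role and ordered by mean level. Red points are the 3 laboratory males, the blue circle is the wild male and blue triangles are the 2 wild females; for 21 of them every red point lies left of every blue one, and for Abcc5 and Abcc10 every red point lies right.

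**Figure D2:**
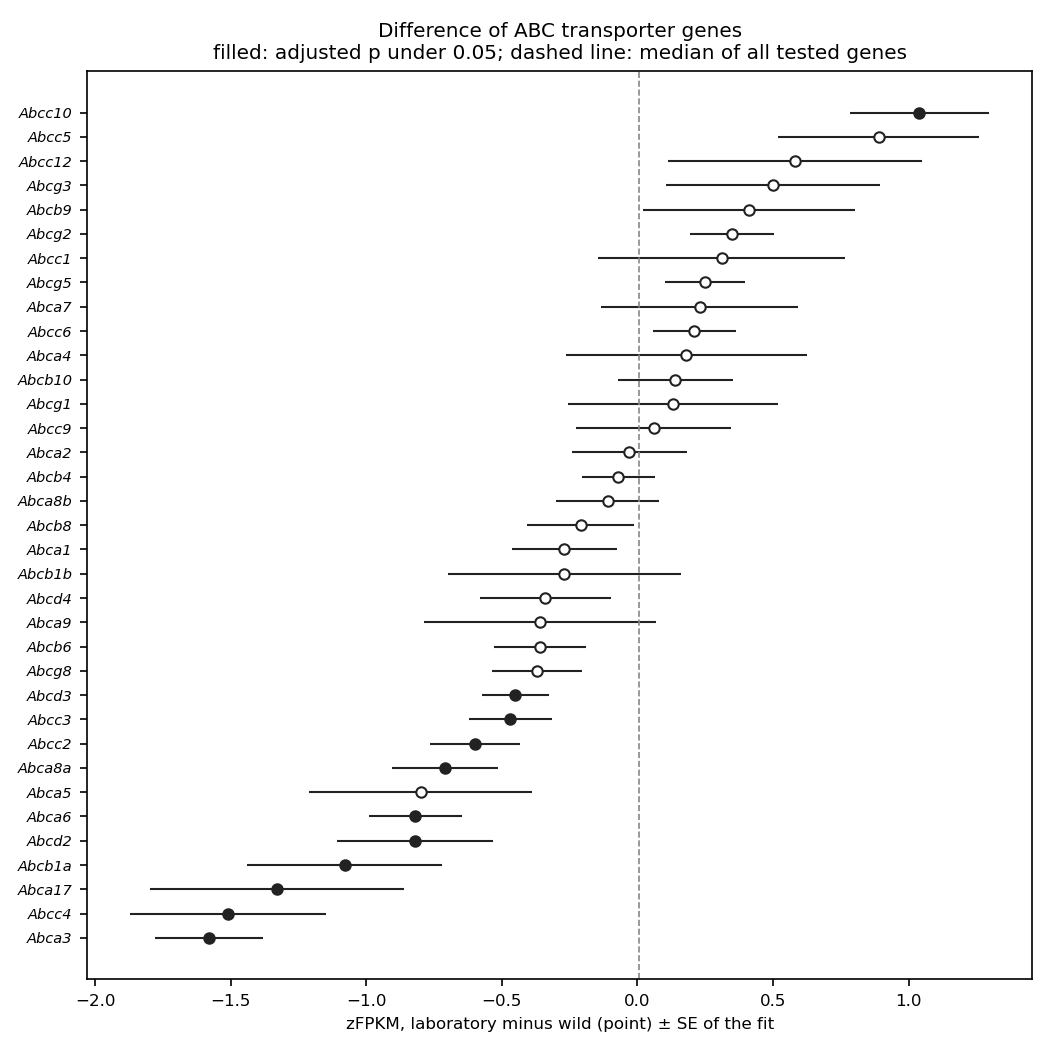
Difference in zFPKM, laboratory minus wild (horizontal), with the standard error of the fit, for 35 tested ABC transporter genes in order of size. Filled points have an adjusted p under 0.05, and they are the 10 lower genes, from Abca3 at -1.58 to Abcd3 at -0.45, and Abcc10 at 1.04; the dashed line is the median of all tested genes.

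These calls depend on how the error was estimated. The fit with a trend of variance over level gave every gene of a given level the same error, with no part taken from the gene's own 3 mice, and 3 mice against 3 cannot give an exact permutation p below 0.10 for a single gene. When gene-specific variances were kept by fitting no trend, only Abca3 (adjusted p = 0.00763, limma) and Abca17 (adjusted p = 0.0287, limma) stayed below 0.05. The other called members then had adjusted p from 0.0528 to 0.296 with limma. A fit with sex as a covariate in effect set the laboratory males against the 1 wild male. In it the zFPKM differences were -1.39 for Abca3, -0.53 for Abcd3, 1.52 for Abcc10, 1.56 for Abcc5 and 1.68 for Abcg3. For Abcg3 the wild male had about 1.76 fragments. The median of all tested genes was then 0.27, against 0.00500 in the main fit, so differences given with this covariate are to be read against 0.27. The share of higher calls moved with the scaling: with log2(FPKM + 0.1) set to a median of 0 in each mouse, 18 members were lower and 6 higher, where 18.6% of all tested genes were lower and 28.7% higher. The members' transcripts were long, with a median of 5317 bases against 2927 bases over all tested genes, and when a trend with transcript length was removed from each mouse (an alternative chosen after seeing the data), 13 members were lower and 3 higher, against 17% and 13.0% of all tested genes, with Abcd3 the only called member that lost its call.

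The 7 canalicular exporters carry the solutes of bile: Abcb4 moves phosphatidylcholine, Abcg5 and Abcg8 move sterols as a heterodimer, Abcc2 moves bilirubin and drug conjugates, Abcg2 moves urate and sulfated compounds, and Abcb1a and Abcb1b move drugs. In this group 2 of 7 members, Abcc2 and Abcb1a, were lower in laboratory mice, none was higher, and the median zFPKM difference was -0.27. Stretches upstream of 3 of its loci are shown, those of the called members and of a pair whose ratio differed between the groups. The sequences are the strand of the named gene in RefSeq's GRCm38.p6 table, up to the start of the gene or of any annotated exon. Capitals mark matches on either strand to any of 5 motifs searched, which were the GC box GGGCGG, the box CCAAT, the TATA box TATAAA, the E-box CACGTG and the nuclear receptor motif AGGTCA.
Abcg5 and Abcg8 (chr17:84683012-84683120, plus strand, the 109 bases between the start of Abcg5 and the downstream annotated start of Abcg8, inside the annotated Abcg8 gene): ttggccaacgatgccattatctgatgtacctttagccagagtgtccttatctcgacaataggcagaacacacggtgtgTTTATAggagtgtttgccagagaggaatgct
Abcc2 (chr19:43782058-43782191, plus strand): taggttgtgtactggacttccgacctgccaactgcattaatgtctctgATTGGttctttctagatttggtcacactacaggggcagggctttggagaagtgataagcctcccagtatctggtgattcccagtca
Abcb1a (chr5:8566841-8567090, plus strand): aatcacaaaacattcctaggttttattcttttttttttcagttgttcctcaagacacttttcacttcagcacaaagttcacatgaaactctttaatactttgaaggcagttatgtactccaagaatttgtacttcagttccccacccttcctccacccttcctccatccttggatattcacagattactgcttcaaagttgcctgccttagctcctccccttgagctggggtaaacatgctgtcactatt

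In the stretch between Abcg5 and Abcg8 the match to TATAAA lay on the strand of Abcg5, and its nearest base was 79 bases from the start of Abcg5 and 26 bases from the downstream start of Abcg8. Another annotated start of Abcg8, at chr17:84676302, lies further upstream, within Abcg5. A match to TATAAA was held by 12.4% of the 250-base upstream windows of all genes and a match to CCAAT, as in the Abcc2 stretch, by 33.8%. The whole 250-base window of Abcc2 also held a match to AGGTCA, outside the printed stretch. The Abcb1a stretch held none of the 5 motifs, no CpG and a GC content of 40.4%. For the remaining motifs the shares of all windows were 32.7% for GGGCGG, 6.02% for CACGTG and 14.0% for AGGTCA. The table held 39 windows for 33 of the 45 members, of which 41.0% held GGGCGG, 28.2% CCAAT, 12.8% TATAAA, 10.3% CACGTG and 15.4% AGGTCA. A match is only a run of letters and says nothing of a bound factor.

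Abcc2 (chr19:43782308-43838332) read 5.79, 7.37 and 9.14 FPKM in the laboratory mice and 30.8, 43.7 and 49.8 FPKM in the wild mice. Every laboratory mouse was below every wild mouse, and the mean was 5.58-fold higher in the wild mice. The zFPKM difference was -0.60 ± 0.165 (SE, n = 3 and 3, limma adjusted p = 0.00375). Over the fits that left out 1 mouse the limma adjusted p ran from 0.00574 to 0.131, and the call was lost without wild mouse 2 or wild mouse 3. With sex as a covariate the difference was -0.31 (limma adjusted p = 0.345).

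Abcb1a (chr5:8567091-8748575) read 0.178, 0.149 and 0.266 FPKM in the laboratory mice against 1.93, 3.94 and 2.75 FPKM in the wild mice. The laboratory values were low in every mouse, and the bounds deposited with the estimates correspond to about 14.2 and 23.9 fragments in laboratory mice 2 and 3 and 208 to 470 fragments in the wild mice. The wild mean was 14.5-fold higher, with a zFPKM difference of -1.08 ± 0.359 (SE, limma adjusted p = 0.0225). Leaving out laboratory mouse 2 or 3 or wild mouse 2 or 3 ended the call, with limma adjusted p up to 0.234. The gene lies across 55994 bases of Rundc3b, and whether strand was used in the authors' counting was not stated, so reads of the overlapping pair may not be separable.

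Abcb1b, the neighbouring paralogue of Abcb1a, read 0.142, 0.214 and 0.178 FPKM in the laboratory mice and 0.298, 0.767 and 0.507 FPKM in the wild mice. The groups did not overlap, but the zFPKM difference of -0.27 ± 0.429 (SE) did not pass the test (limma adjusted p = 0.758). Within a mouse, the ratio of Abcb1a to Abcb1b was 1.26, 0.695 and 1.49 in the laboratory mice against 6.5, 5.14 and 5.42 in the wild mice. This ratio needs no scaling between mice, and it was higher in every wild mouse than in any laboratory mouse (two-sided exact permutation p = 0.10, the smallest that 3 against 3 allows, and 0.10 after adjustment over 3 pairs). The paralogues share 7.49% and 8.72% of their transcripts' 100-base windows, so some reads could have been assigned to either gene.

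Abcg5 read 22.8, 25.6 and 46.0 FPKM in the laboratory mice and 39.5, 29.9 and 24.8 FPKM in the wild mice, and the groups overlapped. Its partner Abcg8 read 7.28, 8.92 and 10.2 FPKM in the laboratory mice and 34.6, 34.1 and 22.9 FPKM in the wild mice, with no overlap. The levels of the partners were thus close in the wild mice and apart in the laboratory mice, where Abcg5 was the higher, and the start of Abcg5 and the downstream start of Abcg8 lie on either side of the printed 109 bases. The ratio of Abcg5 to Abcg8 was 3.14, 2.87 and 4.5 in the laboratory mice against 1.14, 0.877 and 1.08 in the wild mice, a log2 difference of 1.74 (two-sided exact permutation p = 0.10, the smallest possible, and 0.10 after adjustment over the pairs). Neither gene alone passed the test, with zFPKM differences of 0.25 ± 0.147 (SE, limma adjusted p = 0.291) for Abcg5 and -0.37 ± 0.167 (SE, limma adjusted p = 0.132) for Abcg8. Counted from the upstream start of Abcg8, the annotated genes overlap by 6710 bases on opposite strands. Their transcripts share no 100-base window when each is read in its own direction, a comparison that cannot show overlap between strands. Whether strand was used in the authors' counting was not stated, so reads of the overlap may not be separable.

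Abcb4 read 40.8, 31.3 and 37.2 FPKM in the laboratory mice and 68.4, 82.0 and 57.7 FPKM in the wild mice. The wild mean was 1.90-fold higher without overlap, yet relative to the other genes of each mouse the difference was -0.07 ± 0.136 (SE, zFPKM, limma adjusted p = 0.822). Abcg2 read 28.7, 27.2 and 23.2 FPKM in the laboratory mice, 46.1 FPKM in the wild male, and 15.6 and 12.5 FPKM in the wild females. The laboratory males lay between the wild male and the wild females, and the zFPKM difference of the groups was 0.35 ± 0.155 (SE, limma adjusted p = 0.121).

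**Figure D3:**
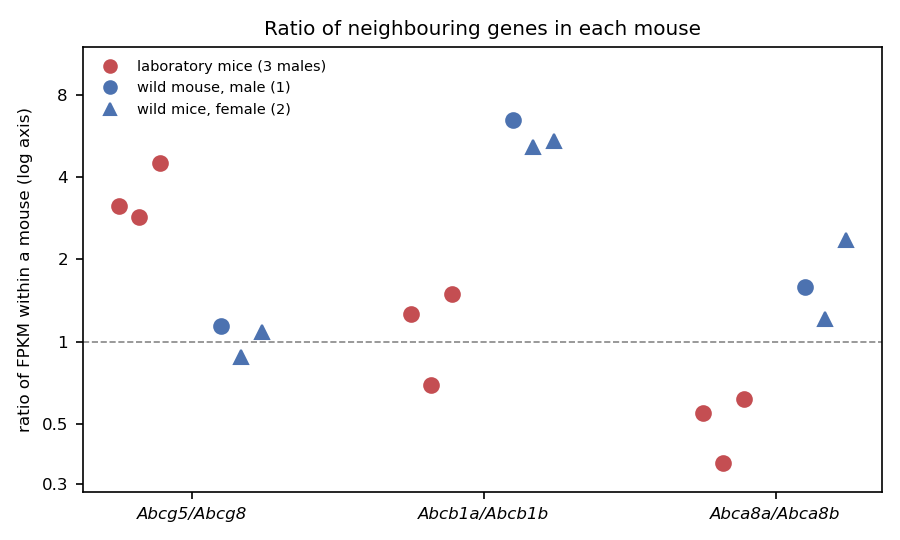
Ratio of FPKM within each mouse (vertical, log axis) for 3 pairs of neighbouring ABC transporter genes. Red circles are the 3 laboratory males, the blue circle is the wild male and the blue triangles are the wild females; Abcg5/Abcg8 lies at 2.87 to 4.5 in laboratory and 0.877 to 1.14 in wild mice, and the other pairs lie higher in every wild mouse.

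The 7 ABCC efflux pumps move glutathione, glucuronide and sulfate conjugates or nucleotides out of the cell. Among them Abcc3 and Abcc4 were lower and Abcc10 was higher in laboratory mice, and 4 members did not pass the test. The median zFPKM difference was 0.31, above 0, since the 4 members that did not pass, Abcc1, Abcc5, Abcc6 and Abcc12, all had differences above 0. Abcc3 (chr11:94343295-94393017), the pump that returns conjugates to blood, read 9.36, 11.1 and 16.5 FPKM in the laboratory mice and 44.4, 60.5 and 52.2 FPKM in the wild mice. The groups stood well apart, with a wild mean 4.25-fold higher and a zFPKM difference of -0.47 ± 0.153 (SE, limma adjusted p = 0.0195). The call was lost without laboratory mouse 1 or 2 or wild mouse 2 or 3, with limma adjusted p up to 0.220.

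Abcc4 (chr14:118482692-118707856), an exporter of cyclic nucleotides and of conjugated bile acids, had the largest fold after Abca3. It read 0.0972, 0.142 and 0.135 FPKM in the laboratory mice, 1.93 FPKM in the wild male, and 5.72 and 6.43 FPKM in the wild females. The wild male was 15.5-fold and the wild females were 48.7-fold above the laboratory mean. The bounds correspond to about 12.3 and 10.8 fragments in laboratory mice 2 and 3 and to 232, 743 and 708 fragments in the wild mice. In zFPKM the difference was -1.51 ± 0.361 (SE, limma adjusted p = 0.000590), and with sex as a covariate it was -0.89 (limma adjusted p = 0.205). Without wild mouse 3 the limma adjusted p was 0.0562, and it was 0.0528 without the trend.

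Abcc10 (chr17:46303220-46328031), a broad-specificity pump for conjugates and lipophilic drugs, was the member called higher in laboratory mice. It read 3.0, 4.56 and 11.6 FPKM in the laboratory mice and 0.788, 0.825 and 2.44 FPKM in the wild mice. The groups did not overlap, although the spread within each was wide, and the laboratory mean was 4.74-fold higher. The zFPKM difference was 1.04 ± 0.257 (SE, limma adjusted p = 0.00101), and it was 1.52 with sex as a covariate (limma adjusted p = 0.00675). The call held in each fit that left out 1 mouse, with differences of 0.80 to 1.24. Its annotation overlaps that of Dlk2 by 52 bases.

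Abcc6, an ATP-releasing transporter that is abundant in liver, read 16.0, 20.6 and 40.4 FPKM in the laboratory mice and 18.8, 28.5 and 35.7 FPKM in the wild mice. The groups overlapped across almost their whole range (zFPKM difference 0.21 ± 0.153 SE, limma adjusted p = 0.412). Abcc5, an exporter of cyclic nucleotides, ran from 0.927 to 1.65 FPKM in the laboratory mice and from 0.170 to 0.733 FPKM in the wild mice, with no overlap (zFPKM difference 0.89 ± 0.370 SE, limma adjusted p = 0.0921). Abcc1 stayed at or below 0.204 FPKM and Abcc12 at or below 0.125 FPKM in every mouse, and both groups overlapped for each. Of the sulfonylurea receptors, which set the nucleotide response of potassium channels, Abcc8 was listed at 0. Its relative Abcc9 read 1.42, 1.40 and 1.53 FPKM in the laboratory mice and 1.49, 3.04 and 2.11 FPKM in the wild mice (zFPKM difference 0.06 ± 0.286 SE, limma adjusted p = 0.933).

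No member of the cellular sterol and phospholipid exporters was called among 3 tested, with limma at adjusted or at unadjusted p under 0.05, with or without the trend. Abca1, which loads cholesterol onto apolipoprotein A-I, read 4.07, 4.65 and 5.60 FPKM in the laboratory mice and 14.8, 10.5 and 15.1 FPKM in the wild mice. The groups did not overlap and the wild mean was 2.82-fold higher, but the zFPKM difference of -0.27 ± 0.194 (SE) gave a limma adjusted p of 0.406. Abca7 ran from 0.407 to 0.971 FPKM in the laboratory mice and from 0.535 to 0.924 FPKM in the wild mice. Abcg1, which exports cholesterol to high-density lipoprotein, read 0.567, 0.417 and 0.444 FPKM in the laboratory mice, 0.190 FPKM in the wild male, and 0.764 and 1.45 FPKM in the wild females. The laboratory males lay between the wild male and the wild females. Abcg4 was above 0 in only 2 mice, at no more than 0.0149 FPKM.

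The Abca5-like genes are 5 lipid transporters that lie side by side in 406 kb of chromosome 11 (chr11:109932206-110337723) in the order Abca8b, Abca8a, Abca9, Abca6 and Abca5. Abca6 and Abca8a were lower in laboratory mice, the other 3 did not pass the test, and the median zFPKM difference of the 5 was -0.71. In FPKM all 5 were lower without overlap in laboratory mice, as were 43.7% of all tested genes. The sum of the 5 was 11.4, 14.2 and 19.2 FPKM in the laboratory mice against 66.1, 74.0 and 94.0 FPKM in the wild mice. Abca6 (chr11:110174638-110251776) read 5.22, 5.54 and 4.46 FPKM in the laboratory mice and 31.7, 46.1 and 50.6 FPKM in the wild mice. Every laboratory mouse was far below every wild mouse, and the wild mean was 8.44-fold higher. On the zFPKM scale the difference was -0.82 ± 0.171 (SE, limma adjusted p = 5.49e-05), and the call held in each of the 6 fits that left out 1 mouse. With sex as a covariate it was -0.53 (limma adjusted p = 0.194).

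Abca8a (chr11:110025634-110097580) read 2.11, 2.21 and 5.48 FPKM in the laboratory mice and 20.3, 14.3 and 29.2 FPKM in the wild mice, with a zFPKM difference of -0.71 ± 0.194 (SE, limma adjusted p = 0.00373). Without wild mouse 3 the limma adjusted p was 0.163. Its neighbour and paralogue Abca8b read 3.84, 6.16 and 8.89 FPKM in the laboratory mice and 12.8, 11.7 and 12.4 FPKM in the wild mice, a zFPKM difference of -0.11 ± 0.190 (SE, limma adjusted p = 0.790). The order of the pair was opposite in the groups. The ratio of Abca8a to Abca8b was 0.549, 0.358 and 0.616 in the laboratory mice against 1.59, 1.21 and 2.36 in the wild mice (two-sided exact permutation p = 0.10, the smallest possible, and 0.10 after adjustment over the pairs), and the transcripts share no 100-base window. Abca5 ran from 0.118 to 0.159 FPKM in the laboratory mice and from 0.851 to 1.40 FPKM in the wild mice (zFPKM difference -0.80 ± 0.412 SE, limma adjusted p = 0.199). Abca9 ran from 0.116 to 0.275 FPKM in the laboratory mice and from 0.419 to 0.813 FPKM in the wild mice (zFPKM difference -0.36 ± 0.428 SE, limma adjusted p = 0.660).

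Among the other ABCA transporters, Abca3 and Abca17 were lower in laboratory mice, and Abca2 and Abca4 did not pass the test. Abca3, the lipid transporter best known for loading surfactant lipids in the lung, had the largest difference of any member. It read 0.767, 1.10 and 1.63 FPKM in the laboratory mice and 39.3, 46.9 and 45.8 FPKM in the wild mice. The wild mean was 37.8-fold higher, and among members Abca3 ranked 23 by level in the laboratory mice and 4 in the wild mice. The zFPKM difference was -1.58 ± 0.200 (SE, limma adjusted p = 4.04e-13), and it was -1.39 with sex as a covariate (limma adjusted p = 0.00390). The wild male, at 33.7-fold above the laboratory mean, was close to the wild females at 39.8-fold. Of 17 other settings only the fit with no filter on low values ended the call, with a limma adjusted p of 0.12.

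Abca3 (chr17:24351921-24410204) and Abca17 (chr17:24264257-24352058) lie head to head and overlap by 138 bases at their starts. Abca17, a sterol-linked transporter best known from testis, read 0.00628, 0.0251 and 0.0546 FPKM in the laboratory mice and 0.502, 0.499 and 0.465 FPKM in the wild mice. The groups stood far apart, but the laboratory values rest on almost nothing, about 0.382 and 1.34 fragments in laboratory mice 2 and 3 against 35.5 to 45.7 fragments in the wild mice. In zFPKM the difference was -1.33 ± 0.468 (SE, limma adjusted p = 0.0349), and the call was lost without laboratory mouse 1, 2 or 3 or wild mouse 2 or 3, with limma adjusted p up to 0.168. With the floor at -5 and with sex as a covariate the call was lost as well. With each transcript read in its own direction, the pair shares 0.235% and 0.287% of its 100-base windows. Reads of the 138-base overlap between the strands may not be separable. The stretch upstream of Abca3 is shown because both neighbours moved the same way.
Abca3 (chr17:24351773-24351920, plus strand): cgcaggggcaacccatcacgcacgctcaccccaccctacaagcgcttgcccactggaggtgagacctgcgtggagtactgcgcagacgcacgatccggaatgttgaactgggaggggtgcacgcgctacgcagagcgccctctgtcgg

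These 148 bases, part of the upstream window of Abca3, held 14 CpG, a GC content of 65.5% and none of the 5 motifs, while the whole window of 250 bases held 21 CpG, a GC content of 67.6% and a match to GGGCGG. Abca2, a lipid transporter of lysosomes, read 4.01, 3.66 and 5.12 FPKM in the laboratory mice and 6.83, 8.49 and 7.0 FPKM in the wild mice (zFPKM difference -0.03 ± 0.211 SE, limma adjusted p = 0.952). Abca4, the retinoid transporter of photoreceptors, reached at most 0.0411 FPKM in any mouse. Abca14, which was not tested, reached 0.157 FPKM in laboratory mouse 3 and was listed at 0 in 3 mice.

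None of the 4 mitochondrial transporters passed the test, and 1 of them, Abcb6, had an unadjusted p under 0.05 with limma (0 without the trend). These genes serve haem and iron-sulfur chemistry. Abcb6, which binds porphyrins, read 7.17, 8.77 and 8.81 FPKM in the laboratory mice and 31.7, 24.0 and 26.5 FPKM in the wild mice (zFPKM difference -0.36 ± 0.169 SE, limma adjusted p = 0.157). Abcb8, whose annotation overlaps that of Cdk5 by 5163 bases, read 3.67, 4.35 and 5.89 FPKM in the laboratory mice and 12.3, 10.3 and 11.7 FPKM in the wild mice (zFPKM difference -0.21 ± 0.198 SE, limma adjusted p = 0.558). For both genes the groups did not overlap in FPKM, with wild means 3.32-fold and 2.47-fold higher. Abcb10, which acts in haem synthesis, ran from 3.93 to 6.61 FPKM in the laboratory mice and from 4.72 to 7.38 FPKM in the wild mice, with overlap. Of the 12 genes of haem and iron-sulfur synthesis tested, Cpox (-0.57, limma adjusted p = 0.00382) and Fech (-0.48, limma adjusted p = 0.0143) were lower in laboratory mice in zFPKM and none was higher. Without the trend none of the 12 passed, and 2 had an unadjusted p under 0.05 with limma.

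The peroxisomal transporters import fatty acyl-CoA for chain shortening: Abcd2 takes very long chains and Abcd3 takes branched chains, dicarboxylic acids and bile acid precursors. Abcd2 and Abcd3 were lower in laboratory mice. Abcd3 (chr3:121758904-121815302) read 37.8, 49.5 and 46.9 FPKM in the laboratory mice and 249, 170 and 143 FPKM in the wild mice. The wild male was the highest of the 6, and Abcd3 alone made up 15.1% to 20.5% of the members' summed FPKM in the laboratory mice and 21.5% to 33.5% in the wild mice. The zFPKM difference was -0.45 ± 0.124 (SE, limma adjusted p = 0.00350), it was -0.53 with sex as a covariate (limma adjusted p = 0.0467), and the call held in each fit that left out 1 mouse. The call was lost without the trend (limma adjusted p = 0.21), with no filter on low values (limma adjusted p = 0.319), with zFPKM set to a median of 0 in each mouse (limma adjusted p = 0.12) and after removal of a trend over transcript length (limma adjusted p = 0.0864).

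Abcd2 (chr15:91145871-91192007) read 0.406, 0.508 and 0.928 FPKM in the laboratory mice, 1.17 FPKM in the wild male, and 12.4 and 10.1 FPKM in the wild females. The wild male stood near the laboratory males, at 1.90-fold their mean, and the wild females stood at 18.2-fold. The zFPKM difference of the groups was -0.82 ± 0.287 (SE, limma adjusted p = 0.0327). It turned to 0.17 with sex as a covariate, a fit in which the median of all tested genes was 0.27. The call was lost without any 1 of the 3 laboratory mice or of the wild females, with limma adjusted p up to 0.471. Of the 11 genes of peroxisomal beta-oxidation tested, 5 were lower in laboratory mice and none was higher, and 1 of the 11 passed without the trend. Among them were Ehhadh at -1.87 (limma adjusted p = 7.60e-32) and Acox2 at -0.44 (limma adjusted p = 0.0146) in zFPKM, which encode enzymes of the pathway that these transporters feed.

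Of the lysosomal transporters, Abcd4, which moves vitamin B12, read 1.36, 1.67 and 2.58 FPKM in the laboratory mice and 4.71, 6.32 and 7.18 FPKM in the wild mice (zFPKM difference -0.34 ± 0.241 SE, limma adjusted p = 0.392). Abcb9, a peptide transporter, read 0.330, 0.690 and 0.830 FPKM in the laboratory mice and 0.434, 0.319 and 0.484 FPKM in the wild mice, with overlap (zFPKM difference 0.41 ± 0.391 SE, limma adjusted p = 0.560). Abcg3, a rodent relative of Abcg2, read 0.647, 0.664 and 0.562 FPKM in the laboratory mice, 0.0727 FPKM in the wild male, and 0.696 and 1.11 FPKM in the wild females. Its group means were almost equal (zFPKM difference 0.50 ± 0.394 SE, limma adjusted p = 0.466), while the wild male stood far below the other 5 mice. For Abcg3 the wild male had about 1.76 fragments by the bounds.

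In several members the wild male and the wild females stood apart. The females' mean over the male's value was 12.4 for Abcg3, 9.61 for Abcd2, 5.81 for Abcg1, 3.14 for Abcc4, 3.04 for Abcc5 and 0.305 for Abcg2. These were the 6 largest ratios in either direction, chosen after their values were seen, and no test of the male against the females was run. Known sex-biased liver genes were summed as well, although those of the male-biased list did not all go the same way. Of the 8 male-biased genes, 5 were called higher in laboratory mice and 1, Ugt2b38, lower. Ugt2b38 read 10.5 to 20.4 FPKM in the laboratory males, 82.2 FPKM in the wild male, and 44.2 and 53.1 FPKM in the wild females. All 12 female-biased genes were called lower in laboratory mice. Of these, 5 were at 0 in every laboratory mouse, so they passed the filter through the wild mice alone and their laboratory values were set to the floor. With only males in the laboratory group and mostly females in the wild group, the direction was largely set by the design. Without the trend 1 of the 8 and 3 of the 12 passed. The summed FPKM of 8 male-biased genes was 836 to 1241 in the laboratory males, 1102 in the wild male and as low as 112 in a wild female. The summed FPKM of 12 female-biased genes was 3.20 to 6.39 in the laboratory males, 142 in the wild male and up to 8022 in a wild female. The part of sex in the members' differences was not tested beyond the covariate.

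**Figure D4:**
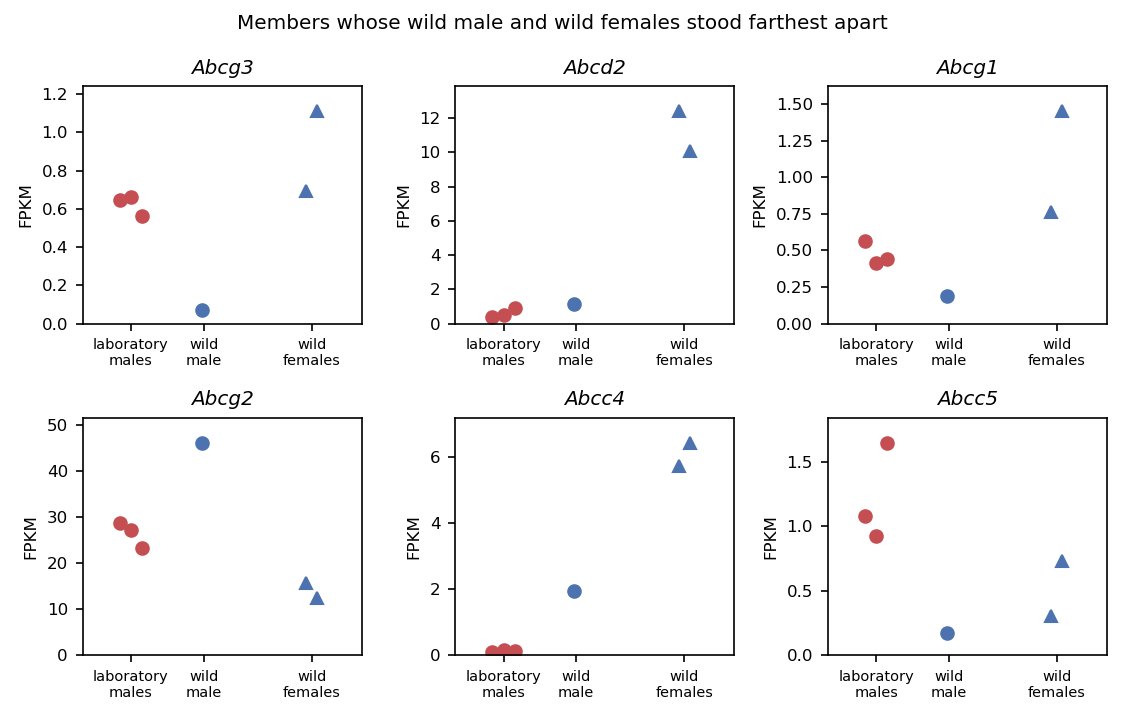
FPKM (vertical, from 0) of the 6 ABC transporter genes with the largest ratios between wild females and the wild male, with a separate scale in each panel. Red circles are the 3 laboratory males, blue circles the wild male and blue triangles the 2 wild females; Abcd2 reads 1.17 in the wild male against 12.4 and 10.1 in the females, and Abcg2 reads 46.1 against 15.6 and 12.5.

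Other genes that work with the transporters were taken as lists. Of 11 regulators of transporter genes, the bile acid receptor gene Nr1h4 was higher (0.51, limma adjusted p = 0.00217) and the genes of the shared partner receptor Rxra (-0.55, limma adjusted p = 0.00228) and of the sterol regulator Srebf2 (-0.54, limma adjusted p = 0.0326) were lower in laboratory mice in zFPKM. Without the trend none of the 11 passed, and 3 had an unadjusted p under 0.05 with limma. Of 7 sterol transport partners tested, Pltp (1.01, limma adjusted p = 2.85e-09) and Apoa1 (0.68, limma adjusted p = 3.71e-16) were higher and none was lower, and without the trend none of the 7 passed and 2 had an unadjusted p under 0.05 with limma. None of the 4 tested genes of other ATP-binding cassette families (Cftr, Abce1, Abcf2 and Abcf3) passed the test, and none had an unadjusted p under 0.05 with limma, with or without the trend.

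Markers of other liver cells also varied between mice, and their part in the members' values was not tested. The summed FPKM of 7 Kupffer cell markers was 48.8 to 74.3 in the laboratory mice and 22.9 to 180 in the wild mice, with 0 of 7 called. The 7 endothelial markers summed to 20.8 to 32.2 and 17.3 to 61.1 FPKM, with 0 of 7 called. In each of these lists 1 marker had an unadjusted p under 0.05 with limma and none without the trend. The 7 stellate cell and fibroblast markers summed to 35.1 to 54.6 FPKM in the laboratory mice and 74.2 to 136 FPKM in the wild mice, with 2 of 7 called, both higher in laboratory mice. The 5 biliary epithelial markers summed to 29.7 to 64.6 and 12.2 to 27.6 FPKM, with 1 called higher. The 6 lymphocyte markers summed to 4.08 to 4.85 and 1.74 to 8.06 FPKM, with 1 of the 5 tested called higher. The 6 erythrocyte markers summed to 877 to 3526 and 507 to 1248 FPKM, with 5 called higher in laboratory mice. Without the trend 1 erythrocyte and 1 lymphocyte marker passed, and no stellate or biliary marker did. No marker of the Kupffer cell, endothelial, stellate or biliary lists was at 0 in all mice of a group.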

How the data were processed

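Liver RNA-Seq of 3 laboratory and 3 wild mice was used, with groups from the labels and sex as given in the study's specimen list. The libraries were stranded mRNA libraries read as 100-base single reads. The authors aligned the reads to a repeat-masked mouse genome (GRCm38.p6) with kalign and deposited FPKM per gene from the Tuxedo pipeline (versions are not given in the sources used here). The authors also deposited zFPKM, a score in which the log2 FPKM of a gene is centred on that mouse's mode and divided by that mouse's SD. For 5 mice the deposited files also give lower and upper bounds of the FPKM, from which relative depth and fragments were worked out by taking the upper bound as 2 standard deviations of counting error above the estimate. Counts were not used here, so the count test of the study's methods was not run.

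Names that occur exactly once per mouse were kept, and those with a failed or overflowing estimate were left out (47232 of 47256 stayed); failures are not marked for laboratory mouse 1. Genes above a zFPKM of -3 in at least 3 mice entered the test, values under -3 being raised to it, in limma 3.58.1 (R 4.3.3) with a variance trend and Benjamini-Hochberg adjustment at 0.05. The steps were tested on simulated data. The trend left the fit with a pooled 74476 degrees of freedom, so that a gene's own spread did not enter its error, against 7.74 degrees of freedom without the trend. Single genes and within-mouse ratios were compared by two-sided exact permutation tests in Python 3.11.15 with SciPy 1.17.1. The 3 laboratory against 3 wild mice cannot give p below 0.10. The family, and so its members, their roles and the gene lists were chosen with earlier results of these data known. Values in every mouse are given for called members, for up to 3 of the most abundant members of each role, and for 3 pairs of neighbours. Promoter sequences came from RefSeq for GRCm38.p6, and exons of GENCODE vM21 were kept out of what is printed. Other floors, filters, scales, scalings, a fit without trend, sex as a covariate and leaving out each mouse were tried. The values of a few members and pathway genes are not reported here.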

Additional observations from a re-analysis of the deposited data

How the results depend on the processing

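The counts of members lower and higher in laboratory mice, 10 and 1, were 2 and 0 with limma without the trend and 0 and 0 with no filter on low values. In each of these fits 13 members had an unadjusted p under 0.05. Of all tested genes 7.28% were lower and 7.17% higher, against 1.89% and 2.38% without the trend. With no filter these shares were 0.0169% and 0.0318%, so almost no gene was called there. The member counts were 23 and 2 with log2(FPKM + 0.1) and likewise 23 and 2 with log2(FPKM + 1). In these fits 37.9% and 36.8% of all genes were lower, 8.19% and 7.43% were higher, and their median moved to -0.47 and -0.20. With log2(FPKM + 0.1) at a median of 0 in each mouse the member counts were 18 and 6, against 18.6% and 28.7% of all genes. After quantile normalization they were 17 and 2, against 20.4% and 18.7% of all genes. They were 2 and 3 with sex as a covariate, where 1.34% of all genes were lower, 6.04% higher and their median moved to 0.27, 13 and 3 with zFPKM at a median of 0 in each mouse, where 13.9% of all genes were lower, and 13 and 3 once a trend with transcript length was removed. Leaving out 1 mouse at a time gave 3 to 10 lower and 1 to 2 higher members, with 6 lower without laboratory mouse 2, 5 without wild mouse 2, 3 without wild mouse 3, and 2 higher without laboratory mouse 3. Over these fits 3.03% to 7.09% of all genes were lower and 3.55% to 8.82% higher. A floor of -5 gave 8 and 1, against 5.31% and 5.20% of all genes. Requiring zFPKM above -3 in all 6 mice gave 10 and 1 among 36 members tested, against 7.35% and 6.62% of all genes.

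The members whose difference changed sign had no call, except Abcd2. With log2(FPKM + 0.1) the differences were -0.021 for Abca4, -0.052 for Abca7, -0.30 for Abcb10, -0.18 for Abcc6, -0.52 for Abcc9, -0.35 for Abcg1 and -0.041 for Abcg5. With log2(FPKM + 1) they were -0.0036, -0.014, -0.26, -0.17, -0.36, -0.23 and -0.039 for the same genes. Quantile normalization gave 0.035 for Abca2 and -0.17 for Abca4, removal of the trend with transcript length gave 0.024 for Abca2, and a median of 0 gave 0.0045 for Abca2. With sex as a covariate the differences were 0.22 for Abca2, 0.060 for Abca8b, 0.068 for Abca9, 0.29 for Abcb1b, 0.056 for Abcb4 and 0.17 for Abcd2. Over the fits that left out 1 mouse the difference ran from -0.15 to 0.083 for Abca2, -0.057 to 0.54 for Abca4, -0.15 to 0.016 for Abcb4, -0.16 to 0.25 for Abcc9, -0.32 to 0.38 for Abcg1 and -0.090 to 0.80 for Abcg3. The median of all tested genes was -0.47 with log2(FPKM + 0.1), -0.20 with log2(FPKM + 1) and 0.27 with sex as a covariate. With log2(FPKM + 0.1) at a median of 0 in each mouse, 0 members changed sign. The cause of the sign changes was not tested. No paired analysis was possible because the laboratory and wild mice were different animals with no matching between the groups. Members with a few fragments in laboratory mice, such as Abca17, allow no precise fold.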
